A study of Mus musculus with 45 samples.

Results

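Extracellular matrix is cut by zinc proteases of the matrix metalloproteinase (Mmp), Adam and Adamts families, held in check by the tissue inhibitors of metalloproteinases (Timp). The genes described here are the rows of the count table named Mmp, Timp, Adam, Adamts or Adamtsl followed by a number and at most 1 letter. There were 70 such genes of 27007 in the table: 20 Mmp, 4 Timp, 22 Adam, 19 Adamts and 5 Adamtsl genes. Of these, 54 had enough reads to be tested, and 16 did not. RNA was sequenced from the left ventricle of wild-type mice operated on in the first day of life. The 9 groups were sham surgery, aortic constriction (nAAC) and reversible aortic constriction (Rev-nAAC), sampled at an age of 4, 6 or 8 weeks, and each group had 5 libraries. All groups shared the wild-type genotype and neonatal surgery, and the labels used here do not say when the reversible constriction was undone.

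Collagenases and gelatinases open fibrillar and denatured collagen, stromelysins cut many matrix proteins, and membrane-type metalloproteinases work at the cell surface, where they also activate other members. Adamts enzymes trim procollagen or cut proteoglycans such as versican and aggrecan, while Adamts-like proteins carry the same matrix-binding modules without a protease domain. Adam proteins are membrane proteases that release growth factors, cytokines and receptors from cells. In the heart these enzymes and their inhibitors are best known from the remodelling of the collagen network under load.

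Library totals ran from 31586082 to 35965976 counts, and levels are given as CPM, which are counts scaled to the normalised library size. Differences are log2 fold changes with their standard error (SE) from the quasi-likelihood test of edgeR over 15444 genes, with Benjamini-Hochberg adjusted p-values called at 0.05. Whether every library is from its own animal is not stated in the labels, so p-values measure the spread between libraries. By genes of the X and Y chromosomes, the 15 sham libraries were male. The nAAC groups had 3 female libraries at 4 weeks, 4 at 6 weeks and 2 at 8 weeks, whereas Rev-nAAC had 2, then 2, then 4. Doubts applied to 5 libraries. The treatment tag of nAAC 4-week replicate 1 says sham, while its title says nAAC. Its level of Nppa, the natriuretic peptide gene raised under load, was 5904 CPM against 64.6 to 129.8 in 4-week sham, and unlike the sham libraries it was female. Replicate 5 of nAAC at 4 weeks and replicate 4 of Rev-nAAC at 6 weeks had low correlations with their own groups. Rev-nAAC 4-week replicate 2 was rich in red cell transcripts, and Rev-nAAC 8-week replicate 4 in fat cell transcripts. Rev-nAAC 8-week replicate 5, the 1 male library of its group, had a median correlation with its group of 0.973, against 0.979 to 0.984 for the other 4, and was not among the 5. Cardiomyocyte markers were high in all libraries, with a summed level of 45004 to 83758 CPM over 10 genes.

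Constriction moved most of the tested members, and the balance of directions changed with age. In nAAC against sham, 18 members were higher and 18 lower at 4 weeks, 23 higher and 7 lower at 6 weeks, and 26 higher and 7 lower at 8 weeks. Over all genes tested, 19.5%, 24.5% and 23.8% were called higher at these ages and 21.2%, 23.8% and 23.5% lower. The median log2 difference over the 54 members was 0.07 at 4, 0.53 at 6 and 0.41 at 8 weeks, beside -0.03, 0.02 and 0.02 over all genes. Members that passed the filter on low counts through the group where they were high had to differ, so these counts and medians describe the tested members and support nothing further. Called higher at all 3 ages were 15 members, Timp1, Timp2, Mmp2, Mmp23, Mmp28, Adamts2, Adamts8, Adamts10, Adamts20, Adamtsl1, Adamtsl2, Adamtsl5, Adam8, Adam9 and Adam15, and 10.4% of all genes had that pattern. Called lower at all 3 ages were 5, Mmp15, Adamts3, Adamts7, Adamts14 and Adam11, against 10.6% of all genes. The sham and nAAC libraries of the 3 ages are separate, and 6 members (Adam10, Adam12, Adam19, Adamts4, Adamts9 and Adamtsl4) were called in opposite directions at different ages, as were 3.04% of all genes.

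**Figure D1:**
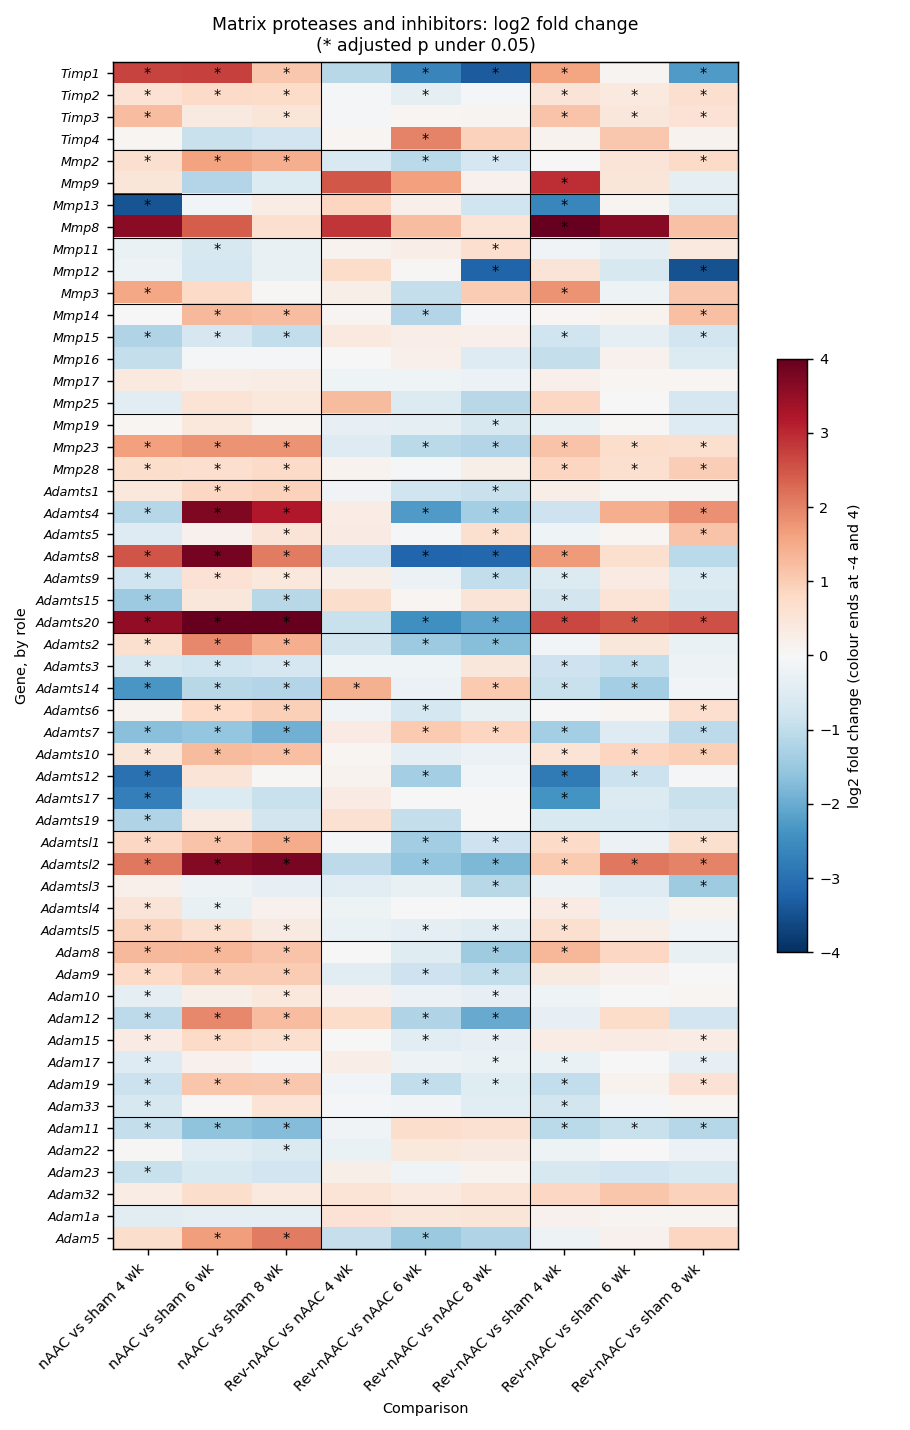
Log2 fold change of the 54 tested members (vertical axis, grouped by role) in the 9 comparisons of operations (horizontal axis), with red for higher and blue for lower and a star where the adjusted p was under 0.05. The nAAC columns carry 18, 23 and 26 higher and 18, 7 and 7 lower calls at 4, 6 and 8 weeks. Over all genes 19.5%, 24.5% and 23.8% were higher and 21.2%, 23.8% and 23.5% lower. The Rev-nAAC against nAAC columns turn mostly blue at 6 and 8 weeks, with 19 and 22 lower and 2 and 4 higher calls. Over all genes 12.1% and 16.0% were lower there and 13.8% and 16.9% higher.

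Ventricular tissue holds many cell types, and in bulk samples fewer cells of a type and less RNA per cell cannot be told apart. Of 10 fibroblast markers, 4, 8 and 6 were higher in nAAC than sham at 4, 6 and 8 weeks and 1 lower at each age. Their summed level was 2645 to 3214 CPM in sham and 3536 to 5812 in nAAC at 4 weeks, 2052 to 2715 and 3454 to 5004 at 6 weeks, and 1847 to 2643 and 3189.6 to 5331 at 8 weeks, with none at 0. In Rev-nAAC it was 3971 to 5734, 2633 to 4156 and 4225 to 5343 CPM. The fibroblast sums of Rev-nAAC and nAAC overlapped at all 3 ages and lay above sham at 4 and 8 weeks. Smooth muscle and pericyte markers summed to 2817 to 3076 CPM in sham, 4239 to 5255 in nAAC and 3469.6 to 3985 in Rev-nAAC at 8 weeks over 10 genes, none at 0. Of these 10, 3 were higher and 2 lower in nAAC than sham, 2 and 1 in Rev-nAAC than sham, and 1 and 1 in Rev-nAAC than nAAC. Of 10 cardiomyocyte markers, 4, 8 and 6 were lower in nAAC at the 3 ages. The part of these markers in the results on proteases was not tested.

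Per kilobase of exon, a scale on which genes can be compared, Timp2, Timp3, Mmp2 and Mmp15 held the 4 highest levels in sham at 4 and 6 weeks. In sham hearts at 4 weeks Mmp2, the gelatinase of fibroblasts, had a level of 38.3 ± 3.95 CPM per kilobase (SD, n = 5), Timp2 37.9 ± 2.64, Mmp15 26.9 ± 1.83 and Timp3 25.7 ± 1.06. At 6 weeks the order in sham was Timp3 at 32.7 ± 3.85, Timp2 at 28.8 ± 3.54, Mmp15 at 23.1 ± 1.46 and Mmp2 at 21.6 ± 1.66, the last 2 within their spread of each other. At 8 weeks it was Timp3 at 42.1 ± 7.32, Timp2 at 30.9 ± 2.66 and Mmp2 at 18.9 ± 4.68, with Adamtsl5 at 18.5 ± 1.81, Mmp15 at 18.4 ± 3.36 and Adam9 at 17.6 ± 1.43 no further from Mmp2 than their spread. In nAAC at 8 weeks Timp3 had 58.8 ± 10.8, Mmp2 51.6 ± 6.62 and Timp2 51.6 ± 7.52 CPM per kilobase, so the 3 did not differ beyond their spread. Of the summed level per kilobase of all 70 members, the 4 Timp genes held 24.4 ± 0.954% in sham, 33 ± 2.58% in nAAC and 35.3 ± 3.79% in Rev-nAAC at 4 weeks. Their share was 27.9 ± 1.71%, 26.2 ± 1.72% and 32.4 ± 2.22% at 6 weeks and 33.4 ± 3.54%, 31.1 ± 3.07% and 37.1 ± 4.06% at 8 weeks. The Mmp share went from 28.4 ± 1.49% in sham at 4 weeks to 21.4 ± 1.27% at 8 weeks, and was 21.8 ± 1.27% in nAAC and 23.5 ± 2.32% in Rev-nAAC at 8 weeks. The 16 members that were not tested stayed at or below 0.480 CPM in all libraries, the highest being Mmp27 in Rev-nAAC 8-week replicate 3. They are Adam1b, Adam2, Adam3, Adam4, Adam6b, Adam18, Adam21, Adam30, Adamts13, Adamts16, Adamts18, Mmp10, Mmp20, Mmp21, Mmp24 and Mmp27, several of them known from testis or tooth rather than heart.

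Among the inhibitors, Timp1 moved most and in both directions. Timp1 is a secreted, inducible inhibitor of most metalloproteinases, and its gene lies at chrX:20870166-20874735 (GRCm38, plus strand) inside the span of Syn1, with no exon shared in the annotation. Its sham libraries had 2.1, 1.42, 1.89, 1.73 and 1.42 CPM at 4 weeks, 2.05, 2.15, 1.92, 1.58 and 1.69 at 6 weeks and 3.6, 3.75, 10.6, 14.8 and 2.98 at 8 weeks. The nAAC libraries had 3.52, 9.35, 22.9, 7.94 and 12.2 CPM at 4 weeks, 7.86, 9.45, 11.2, 23.7 and 10.9 at 6 weeks and 15.5, 16.1, 9.38, 25.3 and 8.85 at 8 weeks. The 2 groups did not overlap at 4 or 6 weeks, but at 8 weeks sham replicates 3 and 4 stood high and lay within the nAAC range. Nppa was also highest in these sham replicates, at 840 and 372 CPM against 155 to 223 in the other 8-week sham libraries. They were not among the doubted libraries, and the part of this in the level of Timp1 was not tested. In Rev-nAAC Timp1 had 3.38, 9.61, 5.9, 2.38 and 4.47 CPM at 4 weeks, 3.42, 1.11, 2.39, 0.959 and 2.15 at 6 weeks and 0.988, 1.07, 0.791, 2.11 and 2.48 at 8 weeks. At 4 weeks every Rev-nAAC library lay above every sham library, at 6 weeks the 2 overlapped, and at 8 weeks every Rev-nAAC library lay below every sham library.

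The log2 fold change of Timp1 in nAAC against sham was 2.70 (SE 0.47, adjusted p = 1.78e-05) at 4 weeks, 2.74 (SE 0.47, adjusted p = 8.05e-06) at 6 weeks and 1.07 (SE 0.43, adjusted p = 0.0362) at 8 weeks. Against nAAC, Timp1 in Rev-nAAC differed by -1.12 (SE 0.43, adjusted p = 0.153), -2.65 (SE 0.46, adjusted p = 4.87e-05) and -3.34 (SE 0.48, adjusted p = 2.24e-06), and against sham by 1.59 (SE 0.47, adjusted p = 0.0104), 0.10 (SE 0.48, adjusted p = 0.916) and -2.26 (SE 0.47, adjusted p = 0.00024). The 4-week value against nAAC was called in 3 of 18 alternative fits, without nAAC replicate 1, without the 5 doubted libraries, at -1.73 (adjusted p = 0.0214), and in the male libraries alone, at -2.05 (adjusted p = 0.0316). These comparisons share libraries, so the values stand side by side only. The gene is X-linked and the groups differ in sex. With sex as a covariate the nAAC difference of Timp1 was 2.70, 2.73 and 1.07 at the 3 ages. The 8-week rise was lost in 9 of 18 alternative fits, among them each fit without 1 of nAAC replicates 1, 2 and 4 or sham replicates 1, 2 and 5, with adjusted p up to 0.141. The 4-week Rev-nAAC rise over sham was lost without Rev-nAAC replicate 2 and in the male libraries alone, where Timp1 differed by 1.21 (adjusted p = 0.0685). The 8-week fall below sham was -2.27 (adjusted p = 0.000911) with sex as a covariate, and in the fit of male libraries, which leaves 1 Rev-nAAC library, it was -1.52 (adjusted p = 0.206).

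Timp2 and Timp3 were the abundant inhibitors, and their rise was smaller and was still seen in Rev-nAAC. Timp2 both inhibits metalloproteinases and helps Mmp14 to activate Mmp2. It had 108, 121, 136, 122 and 115 CPM in sham, 156, 231, 197, 223 and 198 in nAAC and 173, 165, 193, 193 and 221 in Rev-nAAC at 8 weeks. All nAAC and Rev-nAAC libraries lay above all sham libraries at that age. The log2 difference of nAAC from sham was 0.57 (SE 0.14, adjusted p = 0.000899), 0.78 (SE 0.14, adjusted p = 1.13e-05) and 0.74 (SE 0.14, adjusted p = 2.35e-05) at 4, 6 and 8 weeks, and that of Rev-nAAC from sham 0.51 (SE 0.14, adjusted p = 0.00491), 0.40 (SE 0.14, adjusted p = 0.0381) and 0.65 (SE 0.14, adjusted p = 0.000252). Between Rev-nAAC and nAAC, Timp2 was called only at 6 weeks, at -0.38 (SE 0.14, adjusted p = 0.0378), a call lost in 7 of 18 alternative fits, among them those without nAAC replicate 1, 3 or 5 and without Rev-nAAC replicate 4, whose 101 CPM lay far below the other 4 libraries at 155 CPM or more. The 6-week call against sham was lost in 8 fits, among them those without any 1 of sham replicates 1, 4 and 5 or Rev-nAAC replicates 1, 2, 3 and 5, with adjusted p up to 0.102.

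Timp3 binds to the matrix and inhibits Adam and Adamts proteases as well as metalloproteinases. Its exons share 1733 bases with Syn3 on the other strand, and the strand setting of the counting is not given in the sources used here, so reads of the 2 cannot be told apart. In all 17 members share exon bases with another gene, among them Adamts8 with Gm29724 (489 bases), Mmp12 with Mmp1b (157), Adam15 with 4731419I09Rik (1263) and Adam19 with Gm16033 (587), and their counts carry the same doubt. At 4 weeks it had 214, 206, 222, 205 and 201 CPM in sham, 403, 550.3, 509, 669 and 317 in nAAC and 504, 422, 436, 506 and 464 in Rev-nAAC. Sham lay below both operated groups with no overlap, and the operated groups overlapped. At 8 weeks the values were 284, 386, 409.8, 356 and 277 CPM in sham, 377, 531, 559, 538 and 391 in nAAC and 425, 411, 495, 732 and 520.5 in Rev-nAAC, and sham overlapped nAAC. Timp3 differed between nAAC and sham by 1.22 (SE 0.17, adjusted p = 2.11e-07) at 4 weeks, 0.37 (SE 0.16, adjusted p = 0.0611) at 6 weeks and 0.48 (SE 0.16, adjusted p = 0.0144) at 8 weeks, and its nAAC difference was smaller at 6 than at 4 weeks, with a difference of -0.86 (SE 0.23, adjusted p = 0.00817). The 6-week value was called in 5 of 18 alternative fits, among them those without sham replicate 5 or nAAC replicate 3 or 4. In Rev-nAAC against sham the values were 1.15 (SE 0.17, adjusted p = 2.08e-06), 0.46 (SE 0.16, adjusted p = 0.0489) and 0.59 (SE 0.16, adjusted p = 0.00429). The 6-week call was lost in 12 of 18 alternative fits, including those without any 1 of Rev-nAAC replicates 1 to 4 or of sham replicates 1 to 4.

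Timp4, an inhibitor best known from heart, varied widely within groups. At 6 weeks it had 11, 27, 14.3, 17.1 and 28.9 CPM in sham, 25.1, 5.36, 4.4, 8.56 and 8.84 in nAAC and 7.35, 31.1, 13.3, 96.6 and 57.2 in Rev-nAAC. The 3 groups overlapped, with Rev-nAAC replicate 4, a doubted library, highest. Its nAAC difference from sham was 0.08 (SE 0.57, adjusted p = 0.927), -0.90 (SE 0.59, adjusted p = 0.208) and -0.75 (SE 0.57, adjusted p = 0.292) at the 3 ages. The 6-week value became a call without nAAC replicate 1, the highest nAAC library, at -1.52 (adjusted p = 0.0424). Rev-nAAC was called higher than nAAC at 6 weeks, by 1.97 (SE 0.59, adjusted p = 0.0125), and that call was lost without Rev-nAAC replicate 4, in a fit of only the compared groups and in the male libraries alone, where the difference was 2.67 (adjusted p = 0.172). At 4 and 8 weeks Timp4 differed between Rev-nAAC and nAAC by 0.08 (SE 0.57, adjusted p = 0.961) and 0.91 (SE 0.57, adjusted p = 0.232).

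**Figure D2:**
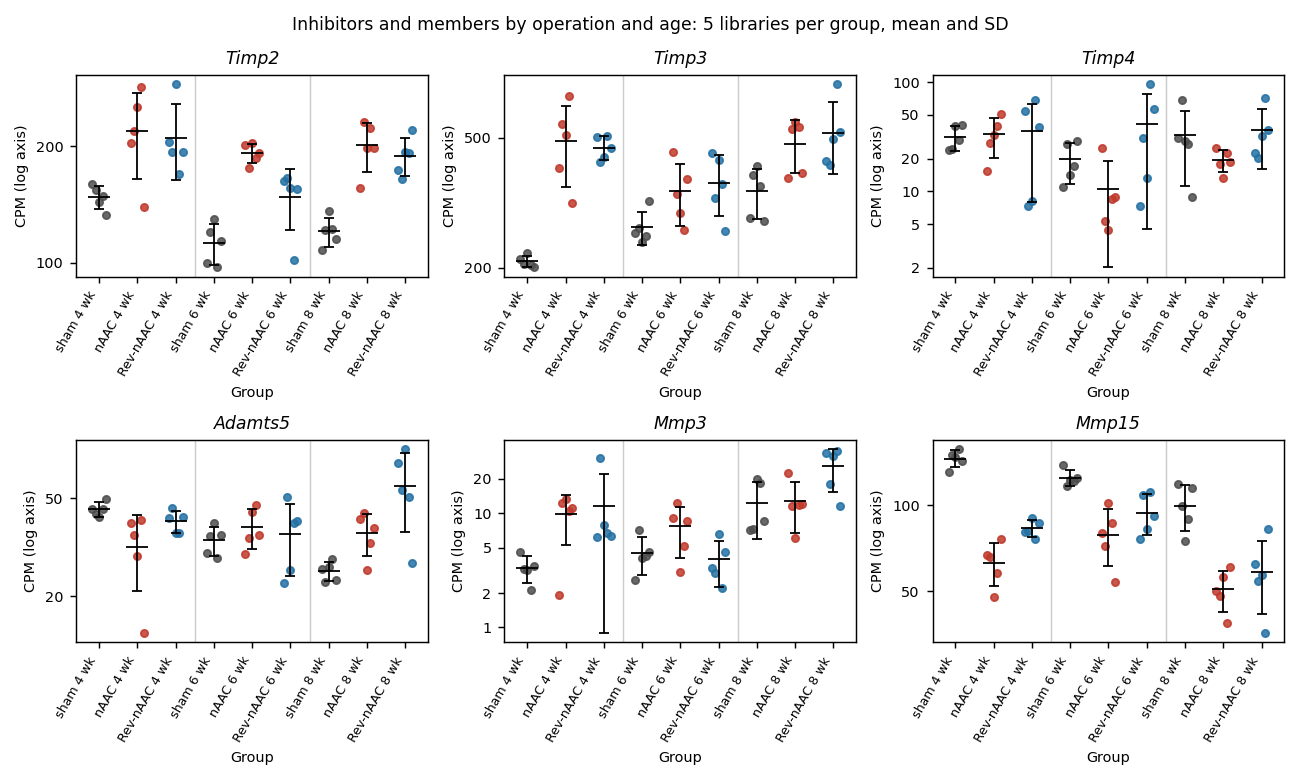
CPM on a log axis in the 5 libraries of each of the 9 groups (points), with the mean and SD (bars), for Timp2, Timp3, Timp4, Adamts5, Mmp3 and Mmp15. Timp3 at 4 weeks stood at 209 ± 8.63 CPM in sham against 489.6 ± 136 in nAAC and 466 ± 38.5 in Rev-nAAC. Mmp15 at 4 weeks was lower in both operated groups than in sham.

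Promoter sequences are shown for members whose messages moved together or apart. Timp1, Adamts20, Adamtsl2 and Mmp23 were higher in nAAC at all ages. Mmp13 and Mmp3, both on chromosome 9, moved in opposite directions at 4 weeks. Each sequence is the 250 bases before the start of transcription in RefSeq, build GRCm38.p6, 5′ to 3′ on the strand of the gene. The windows are chrX:20869916-20870165 (plus strand) for Timp1, chr15:94404351-94404600 (minus) for Adamts20, chr2:27079129-27079378 (plus) for Adamtsl2, chr4:155653385-155653634 (minus) for Mmp23, chr9:7272264-7272513 (plus) for Mmp13 and chr9:7445572-7445821 (plus) for Mmp3. In the GENCODE annotation Adamts20 spans chr15:94270163-94465418 on the minus strand. Its window thus lies inside the gene and not before that 5′ end, whose sequence was not searched. Capitals mark matches on either strand to 3 motifs, the AP-1 site TGANTCA, the TEAD site GGAATG and the SMAD site GTCTAGAC, which do not overlap one another here.
Timp1: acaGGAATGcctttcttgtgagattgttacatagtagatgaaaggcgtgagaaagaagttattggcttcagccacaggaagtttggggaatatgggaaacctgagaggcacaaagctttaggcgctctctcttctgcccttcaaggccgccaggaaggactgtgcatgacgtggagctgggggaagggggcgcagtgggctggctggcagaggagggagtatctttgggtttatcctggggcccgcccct
Adamts20: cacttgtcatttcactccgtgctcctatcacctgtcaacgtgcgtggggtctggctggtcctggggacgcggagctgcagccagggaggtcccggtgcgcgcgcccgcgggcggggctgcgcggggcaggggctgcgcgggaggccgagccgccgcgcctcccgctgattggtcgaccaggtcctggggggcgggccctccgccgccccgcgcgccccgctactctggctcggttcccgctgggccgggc
Adamtsl2: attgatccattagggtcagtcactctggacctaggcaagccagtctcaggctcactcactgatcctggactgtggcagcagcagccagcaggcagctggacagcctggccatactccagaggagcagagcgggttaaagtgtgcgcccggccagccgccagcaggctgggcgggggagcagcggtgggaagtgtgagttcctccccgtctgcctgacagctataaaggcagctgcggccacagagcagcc
Mmp23: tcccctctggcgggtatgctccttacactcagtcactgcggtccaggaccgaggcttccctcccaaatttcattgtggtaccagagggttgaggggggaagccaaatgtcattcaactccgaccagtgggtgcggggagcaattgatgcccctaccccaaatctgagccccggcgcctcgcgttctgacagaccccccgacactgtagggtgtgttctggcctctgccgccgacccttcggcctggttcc
Mmp13: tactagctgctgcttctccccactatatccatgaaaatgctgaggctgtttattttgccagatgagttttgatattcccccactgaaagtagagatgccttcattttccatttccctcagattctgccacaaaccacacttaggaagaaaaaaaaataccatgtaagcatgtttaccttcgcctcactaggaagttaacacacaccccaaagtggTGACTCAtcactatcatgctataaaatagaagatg
Mmp3: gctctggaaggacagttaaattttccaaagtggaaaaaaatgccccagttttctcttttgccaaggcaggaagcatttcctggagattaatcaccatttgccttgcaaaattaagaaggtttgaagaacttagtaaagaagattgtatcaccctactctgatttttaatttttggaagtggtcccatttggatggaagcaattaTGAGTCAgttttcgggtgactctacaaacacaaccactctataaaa

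Mmp13 and Mmp3 each held an AP-1 match, starting 35 and 46 bases before the start of transcription, and Timp1 held a TEAD match 247 bases before it. The windows of Adamts20, Adamtsl2 and Mmp23 held none of the 3 motifs. Of 44 members matched in the promoter table, 6 held AP-1, 3 TEAD and 0 SMAD in at least 1 window. Of 32536 such windows over all genes, 6.73% held AP-1, 12.6% TEAD and 0.169% SMAD. The 6 with AP-1 were Mmp3, Mmp10, Mmp12, Mmp13, Mmp20 and Adam19. A match describes letters in the window and does not show that a factor binds there.

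Of the gelatinases, which cut denatured and basement membrane collagen, Mmp2 rose in nAAC and Mmp9 was scarce. At 4 weeks Mmp2 had 144, 137, 116, 134 and 114 CPM in sham and 147, 205, 273, 235 and 136 in nAAC, with overlap. At 6 weeks it had 64.2, 73.1, 71.6, 75.1 and 79.4 CPM in sham, 204, 194, 246, 231 and 226 in nAAC and 114, 123, 115, 56.5 and 108 in Rev-nAAC, and nAAC stood clear of the other 2 groups. At 8 weeks the groups were fully apart, with sham at 49, 63.2, 90.3, 60.6 and 55.7, Rev-nAAC at 102, 101, 127, 101 and 117 and nAAC at 135, 192, 179.7, 184 and 179.7 CPM. The nAAC difference of Mmp2 was 0.63 (SE 0.20, adjusted p = 0.00978), 1.60 (SE 0.20, adjusted p = 2.55e-08) and 1.45 (SE 0.20, adjusted p = 1.59e-07) at 4, 6 and 8 weeks, larger at 6 than at 4 weeks by 0.97 (SE 0.28, adjusted p = 0.0117). The 4-week call was lost without nAAC replicate 3, the highest library. Rev-nAAC differed from nAAC by -0.62 (SE 0.20, adjusted p = 0.0744), -1.09 (SE 0.20, adjusted p = 6.73e-05) and -0.67 (SE 0.20, adjusted p = 0.00778), and from sham by 0.002 (SE 0.20, adjusted p = 0.995), 0.51 (SE 0.20, adjusted p = 0.0679) and 0.78 (SE 0.20, adjusted p = 0.00187). The 4-week value against nAAC was called in 7 of 18 alternative fits, with sex as a covariate, the replicate block, DESeq2, and without nAAC replicate 1 or 5 or Rev-nAAC replicate 3 among them, and the 6-week value against sham in 6, including the fit without Rev-nAAC replicate 4. In male libraries alone Mmp2 in Rev-nAAC differed from nAAC by -0.74 and -0.54 at 6 and 8 weeks. That fit leaves 1 nAAC library at 6 weeks and 1 Rev-nAAC library at 8 weeks.

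Mmp9, a gelatinase of neutrophils and macrophages, and Mmp8, the neutrophil collagenase, were high in 1 library. At 4 weeks Mmp9 had 0.709, 9.63, 0.487, 0.694 and 0.115 CPM in Rev-nAAC, 0.27, 0.435, 0.385, 0.422 and 0.568 in nAAC and 0.274, 0.388, 0.192, 0.189 and 0.442 in sham, so replicate 2 of Rev-nAAC stood alone. Mmp8 had 6.4 CPM in that library and at most 0.741 in any other of the 45. The summed level of 10 neutrophil markers was 207 CPM there and at most 14.6 in the other 4 Rev-nAAC libraries at 4 weeks, with none at 0 over that group, and 7 red cell markers reached 10292 CPM. In sham at 4 weeks the neutrophil sum was 2.2 to 5.39 CPM, with Ly6g, Mpo and Elane at 0. Their part in these values was not tested. Rev-nAAC was called higher than sham at 4 weeks for Mmp9, by 2.96 (SE 0.75, adjusted p = 0.00309), and without replicate 2 the difference was 0.76 (adjusted p = 0.427). Mmp8 was called too (adjusted p = 0.00112), and the call was lost without that library (adjusted p = 0.101). No fold is given, since Mmp8 had 1 count in each of 2 sham libraries and 0 in the other 3. In nAAC against sham Mmp9 differed by 0.47 (SE 0.79, adjusted p = 0.659), -1.17 (SE 0.78, adjusted p = 0.22) and -0.56 (SE 0.71, adjusted p = 0.549), and in Rev-nAAC against nAAC by 2.48 (SE 0.72, adjusted p = 0.0522), 1.65 (SE 0.76, adjusted p = 0.107) and 0.16 (SE 0.72, adjusted p = 0.887). The 4-week value against nAAC was called by DESeq2 and without Rev-nAAC replicate 1, 3 or 5.

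Mmp13, the main interstitial collagenase of rodents, marked the 4-week sham hearts. It had 3.05, 3.24, 3.11, 3.24 and 3.29 CPM there, 0.406, 0.155, 0.0592, 0.169 and 0.669 in nAAC and 0.409, 0.136, 0.974, 0.513 and 0.576 in Rev-nAAC. The 5 sham libraries were closely alike and lay above all operated libraries of that age. At 6 weeks sham had 0.284, 1.14, 0.891, 0.563 and 0.656 CPM and nAAC 0.733, 1.12, 0.673, 0.235 and 0.503, with overlap, and at 8 weeks all 3 groups were below 1 CPM. Mmp13 differed between nAAC and sham by -3.45 (SE 0.53, adjusted p = 1.62e-06) at 4 weeks, -0.11 (SE 0.50, adjusted p = 0.879) at 6 weeks and 0.31 (SE 0.53, adjusted p = 0.664) at 8 weeks. Rev-nAAC at 4 weeks was also lower than sham, at -2.60 (SE 0.49, adjusted p = 0.000116), and sham at 6 weeks was lower than sham at 4 weeks, at -2.17 (SE 0.48, adjusted p = 0.00137). The difference of the nAAC effects between 6 and 4 weeks was 3.34 (SE 0.72, adjusted p = 0.000911).

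The stromelysin Mmp3, which cuts proteoglycans and activates other proenzymes, behaved unlike Mmp13 at 4 weeks. It had 4.6, 3.24, 3.18, 2.14 and 3.44 CPM in sham, 1.92, 12.2, 13.3, 10.4 and 11 in nAAC and 6.22, 30.5, 7.84, 6.73 and 6.34 in Rev-nAAC. All Rev-nAAC libraries and 4 of 5 nAAC libraries lay above sham, with nAAC replicate 1 below every sham library, and with Rev-nAAC replicate 2 highest. It differed from sham by 1.55 (SE 0.48, adjusted p = 0.00954) in nAAC and 1.80 (SE 0.48, adjusted p = 0.00522) in Rev-nAAC, and the latter call was lost without Rev-nAAC replicate 2, at 1.04 (adjusted p = 0.0914). At 8 weeks Mmp3 had 7.14, 7.22, 19.9, 18.3 and 8.6 CPM in sham, 22.6, 11.5, 6.06, 11.7 and 12 in nAAC and 33.6, 17.8, 31.7, 34.7 and 11.6 in Rev-nAAC, and no comparison called it. Mmp12, the elastase of macrophages, was low in Rev-nAAC at 8 weeks, with 0.141, 0.179, 0.141, 0.114 and 0.147 CPM against 0.948, 1.05, 0.505, 3.55 and 0.658 in nAAC and 0.277, 2.34, 2.32, 1.63 and 1.63 in sham. Rev-nAAC lay below both with no overlap, and differed by -3.19 (SE 0.75, adjusted p = 0.00102) from nAAC and by -3.48 (SE 0.75, adjusted p = 0.000317) from sham. Of 10 macrophage markers, 8 were lower in Rev-nAAC than sham at 8 weeks and 0 higher, and 2 were lower in Rev-nAAC than nAAC and 0 higher. Over all genes 17.3% and 16.0% were lower in these comparisons and 18.3% and 16.9% higher. The 10 markers summed to 286 to 749.6 CPM in Rev-nAAC, 552 to 792 in sham and 428 to 629 in nAAC, with none at 0. Their part in the level of Mmp12 was not tested. Mmp11, a stromelysin with weak matrix activity, was lower in nAAC than sham at 6 weeks, at -0.63 (SE 0.17, adjusted p = 0.00205), and at the other ages differed by -0.28 (SE 0.17, adjusted p = 0.189) and -0.29 (SE 0.17, adjusted p = 0.161).

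Of the 5 tested membrane-type metalloproteinases, Mmp15 was lower in nAAC than sham at all ages and Mmp14 was higher than sham from 6 weeks on. Mmp15 had 131, 149, 148, 157 and 142 CPM in sham at 4 weeks, 66.9, 65.7, 47.9, 58.1 and 76.1 in nAAC and 80.4, 81, 90.3, 76.4 and 86.5 in Rev-nAAC. The groups were fully apart, with Rev-nAAC just above nAAC and both far below sham. At 8 weeks the values were 118, 99.1, 74.7, 89.7 and 115 CPM in sham, 50.3, 48.2, 56.1, 38.7 and 60.6 in nAAC and 62.2, 54.2, 57, 35.9 and 82.6 in Rev-nAAC, and sham lay above nAAC but overlapped Rev-nAAC. The nAAC difference was -1.21 (SE 0.15, adjusted p = 6.53e-08), -0.66 (SE 0.15, adjusted p = 0.000444) and -0.97 (SE 0.15, adjusted p = 1.87e-06), and that of Rev-nAAC from sham -0.81 (SE 0.15, adjusted p = 0.000114), -0.40 (SE 0.15, adjusted p = 0.0599) and -0.77 (SE 0.15, adjusted p = 0.000126). The 6-week value of Rev-nAAC was called in 5 of 18 alternative fits, among them DESeq2 and the fit without Rev-nAAC replicate 4. Rev-nAAC differed from nAAC by 0.40 (SE 0.15, adjusted p = 0.149), 0.25 (SE 0.15, adjusted p = 0.225) and 0.20 (SE 0.15, adjusted p = 0.325), none of them called, although the first was called without the 5 doubted libraries and in the male libraries alone.

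Mmp14 activates Mmp2 at the cell surface and itself cuts fibrillar collagen. At 6 weeks it had 20.1, 22.4, 21.3, 25.4 and 20.3 CPM in sham, 35.4, 50.5, 74, 67.6 and 44.6 in nAAC and 17.5, 33.8, 20.3, 15.3 and 34.3 in Rev-nAAC. The nAAC libraries lay above both other groups, which overlapped. At 8 weeks it had 12.9, 11, 19, 15.1 and 15.8 CPM in sham, 35.3, 29.1, 32.2, 36.8 and 41.3 in nAAC and 36.3, 33.2, 31.7, 48.7 and 20.9 in Rev-nAAC, and now Rev-nAAC lay with nAAC, above all sham libraries. Against sham, nAAC differed by -0.02 (SE 0.22, adjusted p = 0.947), 1.31 (SE 0.22, adjusted p = 7.45e-06) and 1.24 (SE 0.23, adjusted p = 1.95e-05), and the effect at 6 weeks exceeded that at 4 weeks by 1.33 (SE 0.31, adjusted p = 0.00251). Rev-nAAC differed from nAAC by 0.11 (SE 0.22, adjusted p = 0.84), -1.17 (SE 0.22, adjusted p = 0.000145) and -0.03 (SE 0.22, adjusted p = 0.928), and from sham by 0.09 (SE 0.22, adjusted p = 0.808), 0.15 (SE 0.22, adjusted p = 0.693) and 1.21 (SE 0.23, adjusted p = 5.62e-05). The 8-week difference from sham was 1.25 (adjusted p = 0.00033) with sex as a covariate, and 0.51 (adjusted p = 0.227) in the fit of male libraries, where 1 Rev-nAAC library is left. The remaining 3, Mmp16, Mmp17 and Mmp25, were called in none of the 9 comparisons of operations. In alternative fits Mmp16 was called at 4 weeks, in nAAC against sham without nAAC replicate 4, at -1.46 (adjusted p = 0.00972), and in male libraries alone, and in Rev-nAAC against sham in a fit of only those groups, at -0.93 (adjusted p = 0.0464). Their nAAC differences were -0.95, -0.03 and -0.03 for Mmp16, 0.39, 0.26 and 0.30 for Mmp17, and -0.44, 0.55 and 0.42 for Mmp25, with adjusted p from 0.0722 to 0.96.

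Mmp23, a membrane-anchored metalloproteinase without the hemopexin domain of most of the family, rose at every age. It had 5.71, 7.39, 7.13, 7.43 and 5.52 CPM in sham, 23.8, 23, 21.9, 22.5 and 23.9 in nAAC and 13.2, 12.3, 12.8, 5.29 and 10.5 in Rev-nAAC at 6 weeks. The nAAC libraries were close together and far above the others, and Rev-nAAC lay between except for replicate 4, which fell below every sham library. Its nAAC difference was 1.64 (SE 0.20, adjusted p = 3.1e-08), 1.79 (SE 0.20, adjusted p = 2.71e-09) and 1.80 (SE 0.20, adjusted p = 2.12e-09). Rev-nAAC was lower than nAAC, with differences of -1.09 (SE 0.20, adjusted p = 6.24e-05) at 6 and -1.17 (SE 0.20, adjusted p = 1.74e-05) at 8 weeks, and higher than sham by 1.13 (SE 0.20, adjusted p = 4.72e-05), 0.71 (SE 0.20, adjusted p = 0.013) and 0.63 (SE 0.20, adjusted p = 0.0122) at the 3 ages. The 8-week call against sham was lost without Rev-nAAC replicate 5. In male libraries alone Mmp23 in Rev-nAAC differed from nAAC by -0.95 and -0.67 at 6 and 8 weeks. That fit leaves 1 nAAC library at 6 weeks and 1 Rev-nAAC library at 8 weeks. Mmp28, also called epilysin, was higher in both operated groups at all ages, by 0.71, 0.66 and 0.76 in nAAC and by 0.86, 0.63 and 0.99 in Rev-nAAC, with adjusted p of 0.00487 or less. Its 8-week level was 5.62 ± 1.08 CPM in sham, 9.52 ± 1.49 in nAAC and 11.1 ± 2.26 in Rev-nAAC (SD, n = 5).

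The proteoglycan-cleaving Adamts enzymes held the largest rises. Of 7 tested, 2, 5 and 6 were higher in nAAC at 4, 6 and 8 weeks and 3, 0 and 1 lower, against 19.5%, 24.5% and 23.8% of all genes higher and 21.2%, 23.8% and 23.5% lower. Adamts20, known in mice for its role in pigment cell spread and versican turnover, was near the floor in sham, with 0.335, 0.55, 0.353, 0.189 and 0.474 CPM at 4 weeks, 0.378, 0.261, 0.171, 0.422 and 0.311 at 6 and 0.277, 0.187, 0.315, 0.563 and 0.373 at 8 weeks. In nAAC it had 3.92, 5.0, 6.13, 4.31 and 2.91 CPM at 4 weeks, 6.67, 11.5, 9.2, 8.18 and 12.9 at 6 weeks and 12.1, 6.22, 7.54, 10.3 and 7.16 at 8 weeks. Every nAAC library exceeded every sham library of any age. In Rev-nAAC the values were 2.1, 1.17, 5.66, 1.33 and 1.79 at 4 weeks, 1.53, 1.47, 4.35, 0.309 and 1.05 at 6 and 1.44, 3.39, 1.38, 1.97 and 2.12 CPM at 8 weeks. They lay between sham and nAAC at 8 weeks without overlap, while at 4 weeks replicate 3 was within the nAAC range and at 6 weeks replicate 4 was within the sham range. The nAAC difference was 3.54 (SE 0.45, adjusted p = 7.91e-08), 4.96 (SE 0.47, adjusted p = 7.78e-11) and 4.64 (SE 0.46, adjusted p = 1.97e-10), and that of Rev-nAAC from sham 2.66 (SE 0.46, adjusted p = 3.01e-05), 2.49 (SE 0.48, adjusted p = 0.00044) and 2.57 (SE 0.46, adjusted p = 3.05e-05). Rev-nAAC differed from nAAC by -0.88 (SE 0.38, adjusted p = 0.203), -2.47 (SE 0.39, adjusted p = 1.06e-05) and -2.07 (SE 0.38, adjusted p = 7.06e-05). The first of these was called without Rev-nAAC replicate 3.

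Adamts8, an aggrecanase that also restrains vessel growth, rose in nAAC at all ages and was not called between Rev-nAAC and sham at 6 or 8 weeks. It had 1.1, 0.716, 0.994, 1.06 and 0.794 CPM in sham, 20.04, 14.6, 12.7, 6.83 and 12 in nAAC and 2.16, 1.02, 1.93, 0.248 and 1.86 in Rev-nAAC at 6 weeks. At that age nAAC stood apart and the other groups overlapped. At 8 weeks it had 1.75, 1.47, 4.18, 4.15 and 1.81 CPM in sham, 11.4, 10.8, 8.42, 12.3 and 13.6 in nAAC and 0.819, 0.446, 0.65, 2.68 and 1.77 in Rev-nAAC, with sham replicates 3 and 4 high, as for Timp1. The nAAC difference was 2.52 (SE 0.46, adjusted p = 2.92e-05), 3.82 (SE 0.48, adjusted p = 3.13e-08) and 2.08 (SE 0.43, adjusted p = 0.000122). Rev-nAAC differed from nAAC by -0.82 (SE 0.42, adjusted p = 0.292), -3.19 (SE 0.46, adjusted p = 2.64e-06) and -3.15 (SE 0.46, adjusted p = 2.53e-06), and from sham by 1.70 (SE 0.45, adjusted p = 0.00483), 0.63 (SE 0.49, adjusted p = 0.397) and -1.07 (SE 0.46, adjusted p = 0.0633). The 8-week value against sham was called without sham replicate 2 or Rev-nAAC replicate 4, and the 4-week value against nAAC without the 5 doubted libraries.

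Adamts4, an aggrecanase induced in inflamed and loaded tissue, changed its order with age. Sham libraries had 4.78, 7.12, 7.12, 8.99 and 6.76 CPM at 4 weeks but 0.568, 0.782, 1.23, 0.634 and 0.173 at 6 weeks and 0.154, 0.562, 0.802, 0.504 and 0.373 at 8 weeks. The nAAC libraries had 0.649, 3.73, 3.2, 3.38 and 4.95 CPM at 4 weeks, 5.06, 10.6, 12.4, 8.98 and 8.08 at 6 weeks and 5.19, 4.65, 2.15, 5.99 and 4.06 at 8 weeks. Thus sham was mostly the higher group at 4 weeks, with slight overlap, and nAAC was higher without overlap at 6 and 8 weeks. The nAAC difference was -1.13 (SE 0.47, adjusted p = 0.0498), 3.72 (SE 0.54, adjusted p = 4.75e-07) and 3.19 (SE 0.55, adjusted p = 8.92e-06), and it was larger at 6 than at 4 weeks by 4.86 (SE 0.71, adjusted p = 7.24e-06). The 4-week fall was lost in 14 of 18 alternative fits, with DESeq2 and with sex as a covariate among them, and without any 1 of nAAC replicates 1 to 4 or sham replicates 2 to 5, with adjusted p up to 0.16. Rev-nAAC had 2.4, 1.25, 1.38, 2.19 and 1.38 CPM at 8 weeks, above all sham libraries, a difference of 1.84 (SE 0.56, adjusted p = 0.00923), and was lower than nAAC, with differences of -2.28 (SE 0.49, adjusted p = 0.000532) at 6 and -1.35 (SE 0.48, adjusted p = 0.0284) at 8 weeks. The last call was lost in 7 of 18 fits, including those without nAAC replicate 1 or 4 or Rev-nAAC replicate 2, 3 or 5. Adamts4 is also among the 17 members that share exon bases with another gene, so part of its count is uncertain.

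Adamts5, the other main aggrecanase, was highest in Rev-nAAC at 8 weeks, with 69.5, 53.9, 79.2, 50.7 and 27.3 CPM against 41, 43.4, 25.6, 32.8 and 37.7 in nAAC and 25.8, 22.9, 26.3, 28.4 and 23.3 in sham. The groups overlapped slightly, since Rev-nAAC replicate 5 and nAAC replicate 3 lay within the sham range. Rev-nAAC differed by 1.15 (SE 0.22, adjusted p = 6.86e-05) from sham and by 0.64 (SE 0.22, adjusted p = 0.0206) from nAAC. With sex as a covariate these were 1.12 (adjusted p = 0.000811) and 0.62 (adjusted p = 0.0423). In the fit of male libraries, which leaves 1 Rev-nAAC library, they were 0.12 and -0.58, neither called. The call against nAAC was also lost in a fit of only those groups and without Rev-nAAC replicate 1 or 3 or nAAC replicate 3. Adamts9, which cleaves versican and aggrecan, differed in nAAC by -0.78 (SE 0.17, adjusted p = 0.000338), 0.57 (SE 0.17, adjusted p = 0.00539) and 0.41 (SE 0.17, adjusted p = 0.0444), so it was lower at 4 weeks and higher later, and the effects at 6 and 4 weeks differed by 1.36 (SE 0.24, adjusted p = 1e-04). The 8-week call was lost in 10 of 18 alternative fits, with sex as a covariate and without sham replicate 1, 2, 4 or 5 or nAAC replicate 2, 3 or 4 among them. Adamts1, an aggrecanase that inhibits vessel growth, was higher in nAAC at 6 and 8 weeks, by 0.82 (SE 0.31, adjusted p = 0.0261) and 0.94 (SE 0.31, adjusted p = 0.0117), and differed by 0.41 (SE 0.31, adjusted p = 0.287) at 4 weeks. The 6-week call was lost in 8 of 18 alternative fits, among them those without sham replicate 1, 2 or 3 or nAAC replicate 1, 2 or 5. Adamts15, another proteoglycan-cleaving enzyme, was lower in nAAC at 4 weeks, at -1.44 (SE 0.28, adjusted p = 6.15e-05), and at 8 weeks, at -1.12 (SE 0.27, adjusted p = 0.000873), while at 6 weeks it differed by 0.46 (SE 0.27, adjusted p = 0.168).

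**Figure D3:**
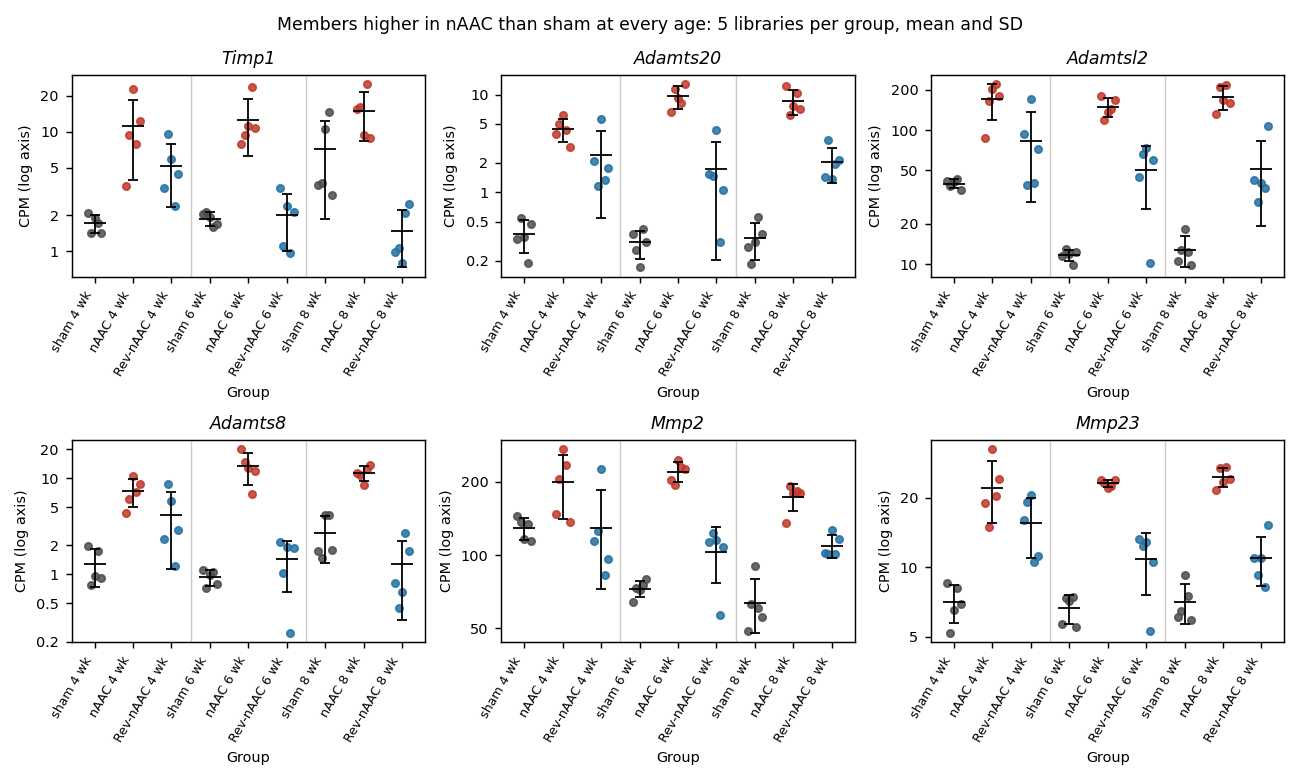
CPM on a log axis in the 5 libraries of each of the 9 groups (points), with the mean and SD (bars), for Timp1, Adamts20, Adamtsl2, Adamts8, Mmp2 and Mmp23. Adamts20 averaged 0.309 ± 0.0987 CPM in sham, 9.69 ± 2.51 in nAAC and 1.74 ± 1.54 in Rev-nAAC at 6 weeks, and Timp1 in Rev-nAAC ended below sham at 8 weeks.

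The 3 procollagen-trimming enzymes, which remove the amino-terminal propeptide of fibrillar collagens, went apart. Adamts2 rose in nAAC by 0.63 (SE 0.23, adjusted p = 0.0247), 1.91 (SE 0.23, adjusted p = 1.93e-08) and 1.45 (SE 0.23, adjusted p = 2.43e-06) at the 3 ages, while Adamts3 fell by 0.64, 0.80 and 0.69 on the log2 scale and Adamts14 by 2.34, 1.12 and 1.16, with adjusted p of 0.0127 or less. The 4-week call of Adamts2 was lost without nAAC replicate 2, 3 or 4 and that of Adamts3 without nAAC replicate 3. Adamts2 was the abundant one of the 3. It ran from 24.6 to 28.4 CPM in sham at 6 weeks, from 93.3 to 118 in nAAC and from 18.4 to 47.3 in Rev-nAAC, so nAAC lay above both. In Rev-nAAC Adamts2 was lower than nAAC, with differences of -1.46 (SE 0.23, adjusted p = 1.1e-05) and -1.71 (SE 0.23, adjusted p = 1.02e-06) at 6 and 8 weeks, and differed from sham by 0.45 (SE 0.23, adjusted p = 0.179) and -0.26 (SE 0.23, adjusted p = 0.396), of which the first was called without Rev-nAAC replicate 4. Adamts14 had 1.61, 2.88, 2.44, 2.96 and 2.43 CPM in sham, 0.73, 0.559, 0.296, 0.619 and 0.201 in nAAC and 2.48, 1.25, 0.513, 1.96 and 0.375 in Rev-nAAC at 4 weeks. Sham was the highest group and overlapped Rev-nAAC alone.

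Of the other Adamts genes, Adamts12 and Adamts7 both act on cartilage oligomeric matrix protein (COMP). Adamts12 had 13.2, 11.4, 10.2, 16 and 14.2 CPM in sham at 4 weeks, 2.03, 2.02, 1.45, 2.17 and 0.568 in nAAC and 2.15, 1.85, 2.1, 1.33 and 1.7 in Rev-nAAC. The sham libraries stood far above both operated groups, which overlapped. At 6 weeks it had 3.34, 2.9, 4.32, 3.17 and 4.35 CPM in sham, 3.51, 3.37, 9.57, 5.92 and 3.44 in nAAC and 0.96, 2.92, 1.62, 1.76 and 2.74 in Rev-nAAC, and at 8 weeks the means of the 3 groups were 2.08 ± 0.23, 2.15 ± 0.484 and 2.01 ± 0.675 CPM (SD, n = 5). The nAAC difference was -2.97 (SE 0.29, adjusted p = 1.99e-10) at 4 weeks, 0.51 (SE 0.27, adjusted p = 0.114) at 6 weeks and 0.04 (SE 0.28, adjusted p = 0.917) at 8 weeks, and the first 2 differed from each other by 3.48 (SE 0.39, adjusted p = 2.36e-07). Rev-nAAC differed from sham by -2.83 (SE 0.29, adjusted p = 2.04e-09) at 4 weeks. Adamts7 was lower in nAAC throughout. It had 26.5, 25.3, 19.4, 21.7 and 29.2 CPM in sham, 5.63, 6.06, 8.47, 5.4 and 6.95 in nAAC and 14.6, 12.7, 13.5, 8.43 and 9.87 in Rev-nAAC at 8 weeks, and sham stood above both. Its nAAC difference was -1.68 (SE 0.21, adjusted p = 6.66e-08), -1.54 (SE 0.21, adjusted p = 1.56e-07) and -1.91 (SE 0.22, adjusted p = 3e-09). Rev-nAAC was higher than nAAC by 1.03 (SE 0.21, adjusted p = 0.000313) and 0.86 (SE 0.21, adjusted p = 0.00189) at 6 and 8 weeks, and lower than sham, with differences of -1.36 (SE 0.21, adjusted p = 7.66e-06) and -1.04 (SE 0.21, adjusted p = 0.000138) at 4 and 8 weeks.

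Adamts10 and Adamts6, related enzymes tied to fibrillin microfibrils, both rose. Adamts10 was higher in nAAC by 0.47 (SE 0.18, adjusted p = 0.0326), 1.26 (SE 0.18, adjusted p = 4.23e-07) and 1.22 (SE 0.18, adjusted p = 7.54e-07) and in Rev-nAAC over sham by 0.54 (SE 0.18, adjusted p = 0.024), 0.86 (SE 0.18, adjusted p = 0.00115) and 0.97 (SE 0.18, adjusted p = 5.7e-05). Its 4-week call in nAAC was lost without sham replicate 1, 3 or 5 or nAAC replicate 1 or 3, and that in Rev-nAAC without sham replicate 1 or 3 or Rev-nAAC replicate 3. Adamts6 was higher in nAAC at 6 and 8 weeks, by 0.79 (SE 0.23, adjusted p = 0.00486) and 0.96 (SE 0.24, adjusted p = 0.000817). Adamts17, also a microfibril-associated enzyme, was lower at 4 weeks in nAAC, at -2.73 (SE 0.43, adjusted p = 2.3e-06), and in Rev-nAAC, at -2.40 (SE 0.41, adjusted p = 2.91e-05), from 1.79 ± 0.483 CPM in sham (SD, n = 5). Of the 5 Adamts-like genes, 4, 3 and 3 were higher in nAAC at 4, 6 and 8 weeks and 0, 1 and 0 lower, against 19.5%, 24.5% and 23.8% of all genes higher and 21.2%, 23.8% and 23.5% lower. Adamtsl2, a microfibril protein that binds latent TGF-beta complexes, had 41.4, 37.9, 41, 43.1 and 36 CPM in sham at 4 weeks, 11.5, 12.9, 11.8, 9.86 and 12.3 at 6 and 10.6, 12.8, 18.4, 12.3 and 9.86 at 8 weeks. In nAAC it had 87, 164, 201, 219.6 and 180.1 CPM at 4 weeks, 178, 119.6, 136, 143 and 168 at 6 weeks and 131, 208, 169, 217 and 159.6 at 8 weeks, above every sham library of its age. In Rev-nAAC it had 92.9, 39.2, 171, 40.2 and 72.6 CPM at 4 weeks, 44.3, 65.8, 73.2, 10.1 and 60.1 at 6 weeks and 42.3, 28.9, 40.1, 37 and 107 at 8 weeks. At 6 weeks replicate 4 lay with sham, and at 8 weeks all 5 lay between the other groups.

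The nAAC difference of Adamtsl2 was 2.09 (SE 0.37, adjusted p = 2.13e-05), 3.67 (SE 0.40, adjusted p = 2.11e-09) and 3.79 (SE 0.40, adjusted p = 1.04e-09), and the 6-week value exceeded the 4-week value by 1.58 (SE 0.51, adjusted p = 0.0275), while the nAAC level itself was 170.4 ± 51.1 CPM at 4 and 149 ± 23.9 at 6 weeks and the sham level 39.9 ± 2.9 and 11.7 ± 1.15 (SD, n = 5). Rev-nAAC differed from nAAC by -1.03 (SE 0.36, adjusted p = 0.105), -1.56 (SE 0.36, adjusted p = 0.00136) and -1.79 (SE 0.36, adjusted p = 0.000246), and from sham by 1.06 (SE 0.36, adjusted p = 0.0258), 2.12 (SE 0.38, adjusted p = 0.000207) and 1.999 (SE 0.37, adjusted p = 6.2e-05). The 4-week call against sham was lost without Rev-nAAC replicate 3, at 0.62 (adjusted p = 0.209), and without sham replicate 2 or 5. The 4-week value against nAAC was called with sex as a covariate, without nAAC replicate 1 or Rev-nAAC replicate 3, and without the doubted libraries. In male libraries alone the Adamtsl2 differences from nAAC were smaller, at -0.84 and -0.63 at 6 and 8 weeks. That fit leaves 1 nAAC library at 6 weeks and 1 Rev-nAAC library at 8 weeks. Adamtsl1 and Adamtsl5 were higher in nAAC at all ages, by 0.84, 1.15 and 1.47 and by 0.91, 0.63 and 0.34, with adjusted p of 0.00976 or less. Adamtsl4, a fibrillin-binding protein, was higher at 4 weeks, by 0.52 (SE 0.11, adjusted p = 0.000191), and lower at 6 weeks, at -0.28 (SE 0.11, adjusted p = 0.029), and the 2 effects differed by -0.80 (SE 0.15, adjusted p = 0.000251). The 6-week call was lost in 6 of 18 fits, among them those without sham replicate 1 or 5 or nAAC replicate 2, 3 or 4. Adamtsl3 was lower in Rev-nAAC at 8 weeks, with 4.05 to 6.22 CPM against 13 to 15 in sham, a difference of -1.43 (SE 0.21, adjusted p = 1.6e-06).

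Among the Adam genes, 8 encode active proteases and were tested. Of these 3, 5 and 6 were higher in nAAC at 4, 6 and 8 weeks, and 5, 0 and 0 lower, against 19.5%, 24.5% and 23.8% of all genes higher and 21.2%, 23.8% and 23.5% lower. Adam19, which cleaves neuregulin and is needed for mouse heart septation, had 63.7, 84.7, 82.4, 95.9 and 93.3 CPM in sham and 47.4, 56.3, 44.4, 48.5 and 35.4 in nAAC at 4 weeks. At 6 weeks it had 38.8, 27.5, 37, 30.1 and 41.4 CPM in sham and 75.5, 84.6, 81, 61 and 77.8 in nAAC. Sham was the higher group at 4 weeks and nAAC at 6 weeks, each time without overlap. The nAAC difference was -0.86 (SE 0.17, adjusted p = 0.00014), 1.12 (SE 0.18, adjusted p = 1.63e-06) and 1.08 (SE 0.18, adjusted p = 3.11e-06), and the 6-week and 4-week effects differed by 1.98 (SE 0.25, adjusted p = 5.66e-07). Rev-nAAC had 34.7, 45.7, 64.2, 29 and 39.7 CPM at 4 weeks, 36.7, 47.9, 34.2, 25.3 and 48.1 at 6 weeks and 51.5, 45.9, 37.5, 39.8 and 39.8 at 8 weeks and differed from sham by -0.98 (SE 0.17, adjusted p = 5.44e-05), 0.14 (SE 0.17, adjusted p = 0.63) and 0.59 (SE 0.18, adjusted p = 0.00779). Adam12, a shedding enzyme of heparin-binding EGF, changed in the same order, by -1.06 (SE 0.35, adjusted p = 0.014), 1.93 (SE 0.37, adjusted p = 3.02e-05) and 1.25 (SE 0.36, adjusted p = 0.00407), at levels from 0.226 to 3.71 CPM.

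Adam17, which releases tumour necrosis factor and EGF receptor ligands, and Adam10, the main sheddase of Notch and cadherins, moved little. Adam17 was lower in nAAC at 4 weeks, at -0.53 (SE 0.09, adjusted p = 6.03e-06), and differed by 0.17 (SE 0.09, adjusted p = 0.0995) and -0.06 (SE 0.09, adjusted p = 0.63) later, the first of these called with sex as a covariate and without nAAC replicate 5. Adam10 was lower at 4 weeks, at -0.36 (SE 0.10, adjusted p = 0.00486), not called at 6 weeks, at 0.24 (SE 0.10, adjusted p = 0.0534), and higher at 8 weeks, by 0.41 (SE 0.10, adjusted p = 0.00102). The 4-week call was lost without nAAC replicate 5, and the 6-week value became a call without nAAC replicate 1. Adam9 and Adam15, widely expressed surface proteases, were higher in nAAC at all ages, by 0.78, 1.02 and 1.03 for Adam9 and 0.32, 0.76 and 0.63 for Adam15, with adjusted p of 0.0285 or less. The 4-week call of Adam15 was lost without sham replicate 1 or nAAC replicate 3 or 5. Adam9 ran from 66.5 to 79 CPM in sham, from 133 to 183 in nAAC and from 68.5 to 82.4 in Rev-nAAC at 8 weeks, so nAAC stood apart and the other 2 groups overlapped. Adam8, a protease of myeloid cells, rose by 1.31 (SE 0.49, adjusted p = 0.0288), 1.31 (SE 0.50, adjusted p = 0.0282) and 1.13 (SE 0.45, adjusted p = 0.038). The 4-week call was lost in 6 of 18 fits (with sex as a covariate and without sham replicate 1, 2 or 3 or nAAC replicate 3 or 4) and the 6-week call in 8 (sex again, male libraries, no filter on low counts, and without sham replicate 1, 4 or 5 or nAAC replicate 3 or 4). At 8 weeks Adam8 had 0.954, 1.37, 1.6, 1.39 and 1.26 CPM in sham and 2.9, 1.79, 1.01, 7.96 and 0.737 in nAAC, with nAAC replicate 4 highest and the groups overlapping. That call was lost in 11 of 18 fits, among them those with sex as a covariate and without sham replicate 1, 2, 4 or 5 or nAAC replicate 1 or 4, and without nAAC replicate 4 the difference was 0.29 (adjusted p = 0.617). Adam11, a protein without an active protease that is known from nervous tissue, fell by 0.94, 1.61 and 1.75 on the log2 scale in nAAC and was lower than sham in Rev-nAAC at all ages, at -1.09 (SE 0.27, adjusted p = 0.00283), -0.90 (SE 0.27, adjusted p = 0.018) and -1.14 (SE 0.27, adjusted p = 0.00102). The 6-week value was not called without Rev-nAAC replicate 1 or 3.

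Sham hearts themselves changed with age. Between 4 and 6 weeks 16 members fell and 2 rose in sham, where 9.58% of all genes fell and 7.32% rose. The median was -0.34 over members and -0.01 over all genes. The 5 largest falls on the log2 scale were in Adamts4, at -3.35 (SE 0.54, adjusted p = 2e-05), Mmp13, Adamts12, at -1.85 (SE 0.27, adjusted p = 3.66e-06), Adamtsl2, at -1.77 (SE 0.37, adjusted p = 0.00084), and Adam12, at -1.71 (SE 0.37, adjusted p = 0.000872). The 2 rises were in Adamtsl4, by 0.46 (SE 0.11, adjusted p = 0.00265), and Adamtsl5, by 0.38 (SE 0.09, adjusted p = 0.0014). Between 6 and 8 weeks 1 member rose in sham, Timp1, by 1.92 (SE 0.47, adjusted p = 0.0237), and 0 fell, beside 1.06% and 0.771% of all genes. That call was lost without sham 8-week replicate 3 or 4 and without sham 6-week replicate 1, 3, 4 or 5. A fit of only the compared groups called 13 members there. The signed log2 difference of nAAC from sham was higher at 6 than at 4 weeks for 15 members, against 8.96% of all genes. It was lower for 2, Timp3 and Adamtsl4, against 8.32% of all genes, and the median change was 0.44 against -0.01. A higher value need not be a stronger effect. Mmp13 and Adamts12 were lower in nAAC at 4 weeks, at -3.45 and -2.97, and were not called at 6 weeks. The sham libraries of 4 and 6 weeks enter this comparison of effects and the ageing comparison alike, so the 2 counts are not separate results. In the male libraries alone 10 members were called in this comparison. Between 8 and 6 weeks edgeR called 0 members for a change of the effect, beside 0.0583% of all genes higher and 0.104% lower, with 5 members under an unadjusted p of 0.05 and 1 called by DESeq2.

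**Figure D4:**
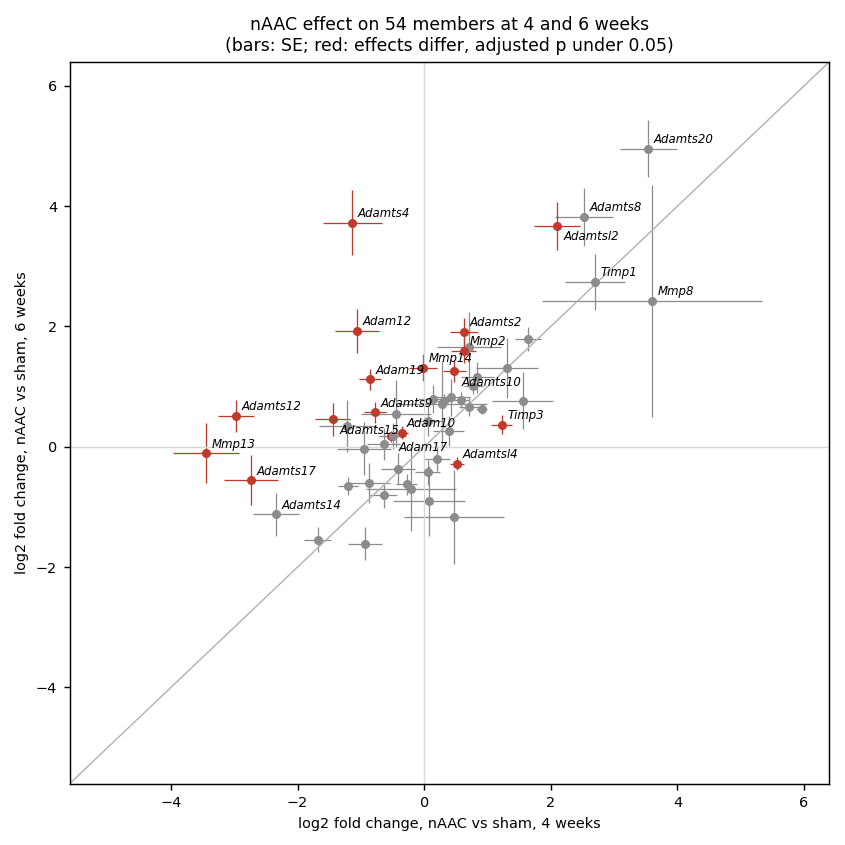
Log2 fold change of nAAC against sham at 4 weeks (horizontal axis) and 6 weeks (vertical axis) for the 54 tested members, with SE bars, the line of equal effects, and red where the 2 effects differed at an adjusted p under 0.05. Of the 17 red members 15 lie above the line, Adamts4 farthest from it.

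**Figure D5:**
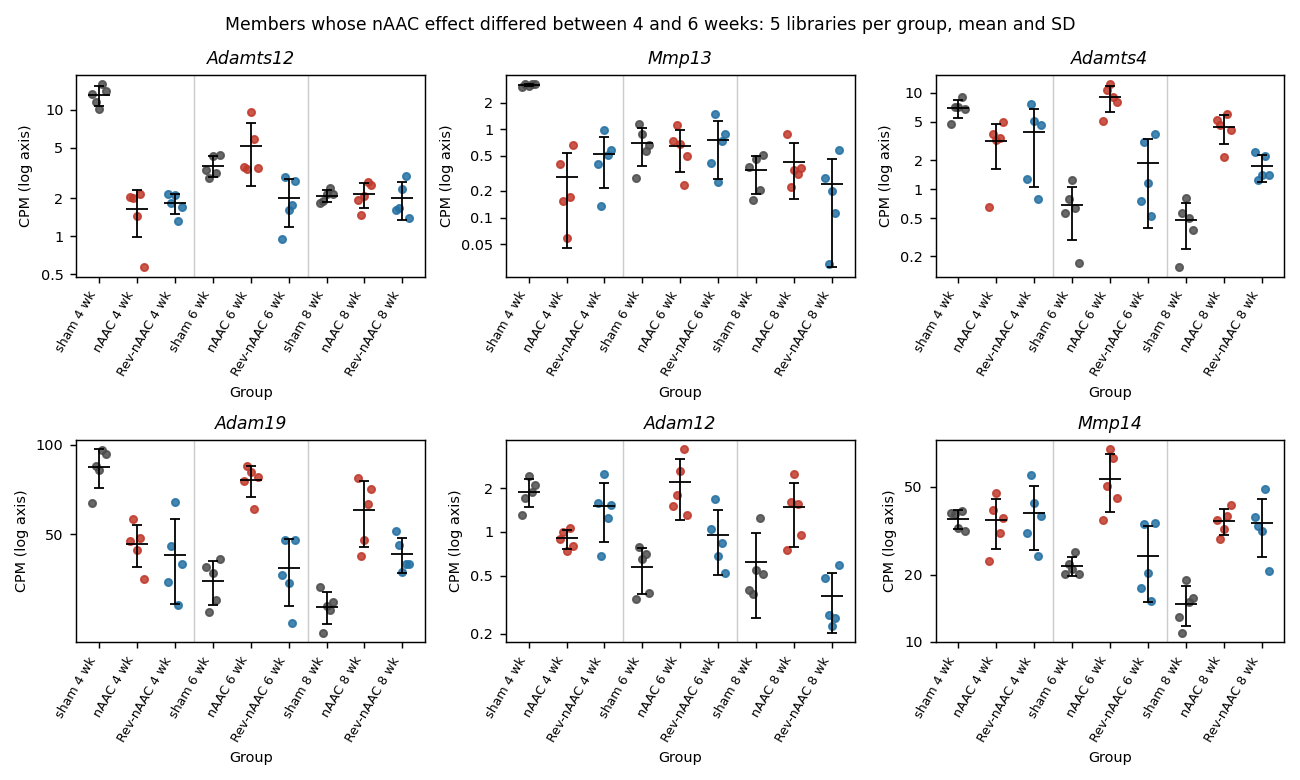
CPM on a log axis in the 5 libraries of each of the 9 groups (points), with the mean and SD (bars), for 6 members whose nAAC effect differed between 4 and 6 weeks: Adamts12, Mmp13, Adamts4, Adam19, Adam12 and Mmp14. In sham, Adamts12 went from 13 ± 2.3 CPM at 4 weeks to 3.62 ± 0.675 at 6 weeks, whereas in nAAC it was 1.65 ± 0.663 and 5.16 ± 2.69.

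Rev-nAAC was also compared with nAAC of the same age. At 4 weeks Rev-nAAC and nAAC differed in 1 member, Adamts14, by 1.43 (SE 0.36, adjusted p = 0.0248), with 0 lower, beside 0.790% of all genes higher and 1.76% lower. That call was lost without nAAC replicate 3 or 5 or Rev-nAAC replicate 1 or 4. The count at 4 weeks was 9 without nAAC replicate 1 and 13 without the 5 doubted libraries, so it rests on which libraries enter. At 6 weeks 19 members were lower in Rev-nAAC and 2 higher, against 12.1% and 13.8% of all genes, and at 8 weeks 22 were lower and 4 higher, against 16.0% and 16.9%. The medians were -0.27 and -0.28 over members and 0.01 and 0.03 over all genes. Lower at both ages, which share no library, were 14 members, Timp1, Mmp2, Mmp23, Adamts2, Adamts4, Adamts8, Adamts20, Adamtsl1, Adamtsl2, Adamtsl5, Adam9, Adam12, Adam15 and Adam19, or 73.7% of the 6-week and 63.6% of the 8-week list. Over all genes 69.2% of the 6-week and 52.2% of the 8-week list were lower at both ages, so the share of members was near that of all genes. Adamts7 was higher at both ages, as were 8.68% of all genes. In the male libraries alone, which leave 1 nAAC library at 6 weeks and 1 Rev-nAAC library at 8 weeks, 9 and 2 members were called. The change from 4 to 8 weeks in the difference between Rev-nAAC and nAAC was called for 7 members, all toward lower in Rev-nAAC, beside 3.86% of all genes lower and 4.05% higher. They were Mmp12, by -3.91 (SE 1.02, adjusted p = 0.0165), Adam12, by -2.74 (SE 0.52, adjusted p = 0.00237), Adamts8, by -2.33 (SE 0.61, adjusted p = 0.0174), Timp1, by -2.22 (SE 0.63, adjusted p = 0.0257), Adamts9, Adam17 and Adam10. The call of Mmp12 was lost without Rev-nAAC 4-week replicate 5 or nAAC 8-week replicate 4, that of Adamts8 without Rev-nAAC 4-week replicate 2, and that of Timp1 without Rev-nAAC 4-week replicate 2 or 3, nAAC 8-week replicate 4 or Rev-nAAC 8-week replicate 2. The count was 4 without nAAC 8-week replicate 4, 12 without Rev-nAAC 8-week replicate 5, 3 without the doubted libraries, and 0 in a fit of only the compared groups.

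Against sham, Rev-nAAC hearts had 16 members higher and 13 lower at 4 weeks, 7 and 4 at 6 weeks, and 15 and 8 at 8 weeks. Over all genes 12.2%, 8.66% and 18.3% were higher and 13.1%, 8.39% and 17.3% lower. The median over members was -0.01, 0.10 and 0.04, and over all genes -0.01, 0.02 and 0.03. Higher at all 3 ages were Timp2, Timp3, Mmp23, Mmp28, Adamts10, Adamts20 and Adamtsl2, 7 members beside 2.69% of all genes, and lower at all 3 was Adam11, beside 3.21%. Adam19 and Timp1 were called in opposite directions at different ages, as were 1.33% of all genes. The 6-week count of 11 rose to 18 without Rev-nAAC replicate 4 and to 21 without the 5 doubted libraries or in male libraries alone, and fell to 7 without Rev-nAAC replicate 3. The 8-week count of 23 fell to 11 in the male libraries alone.

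Other genes of the pathways, in 3 lists chosen with earlier results known, moved as follows. Of 35 tested regulators of extracellular proteolysis such as plasminogen activators, serpins, cathepsins and propeptidases, 11, 17 and 18 were higher in nAAC at 4, 6 and 8 weeks and 7, 6 and 7 lower, against 19.5%, 24.5% and 23.8% of all genes higher and 21.2%, 23.8% and 23.5% lower. Their median difference was 0.24, 0.47 and 0.41. Among those with the smallest p at 4 weeks were Mme, the membrane endopeptidase neprilysin, at -4.20 (SE 0.42, adjusted p = 5.21e-10), Pcolce2, an enhancer of procollagen processing, at 1.49 (SE 0.18, adjusted p = 1.77e-08), and Lrp1, a receptor that clears proteases, at 0.99 (SE 0.15, adjusted p = 1.48e-06). At 8 weeks Mme was at -4.31 (SE 0.43, adjusted p = 2.29e-10) and Ctsk, the collagen-cutting cathepsin K, at 1.30 (SE 0.18, adjusted p = 1.98e-07), and in Rev-nAAC against nAAC these 2 were at 3.21 (SE 0.42, adjusted p = 5.17e-07) and -1.49 (SE 0.18, adjusted p = 2.01e-07). Of 20 tested proteoglycans and hyaluronan partners, 10, 13 and 11 were higher in nAAC at the 3 ages and 3, 2 and 2 lower, with medians of 0.72, 0.99 and 0.67. The list mixes substrates of the Adamts enzymes with partners such as Cd44, so its counts are not counts of substrates. Comp, a substrate of Adamts7 and Adamts12, was at 5.47 (SE 0.68, adjusted p = 7.65e-08) at 4 weeks and Bgn, the proteoglycan biglycan, at 1.90 (SE 0.24, adjusted p = 7.98e-08). Cd44, the hyaluronan receptor, was at 1.80 (SE 0.16, adjusted p = 2.1e-11) at 6 weeks. Of 34 tested partners and substrates of shedding, 12, 18 and 17 were higher and 7, 5 and 5 lower, with medians of 0.08, 0.41 and 0.39. In Rev-nAAC against nAAC at 6 and 8 weeks, 3 and 6 of the proteolysis regulators were higher and 13 and 18 lower, 1 and 0 of the proteoglycan list higher and 9 and 8 lower, and 3 and 3 of the shedding list higher and 12 and 13 lower, beside 13.8% and 16.9% of all genes higher and 12.1% and 16.0% lower. In nAAC against sham at 4 weeks, Cx3cl1, a membrane chemokine shed by Adam10 and Adam17, was at 1.63 (SE 0.20, adjusted p = 2.77e-08). In the same comparison Hbegf, heparin-binding EGF, was at 1.48 (SE 0.22, adjusted p = 1.41e-06). Ereg, the EGF receptor ligand epiregulin, was at 5.24 there (SE 0.72, adjusted p = 2.32e-07), from a sham level of 0.0625 CPM.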

How the data were processed

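Total RNA of the left ventricle was extracted with Trizol and made into libraries with a VAHTS Universal V6 kit, per the labels' protocols. The authors deposited whole-number read counts per gene, and fastp 0.20.1, HISAT2 2.1.0, HTSeq 0.11.2 and the build GRCm38 (mm10) are named in the submitters' processing notes. The annotation, the strand setting and the handling of reads shared between genes are not given in the sources used here.

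Groups were taken from the titles. Counts of all 45 libraries entered 1 fit with a mean for each of 9 groups (R 4.3.3, edgeR 4.0.16, TMM scaling, filterByExpr with a minimum count of 10 and a minimum total of 15, quasi-likelihood test with 36 residual degrees of freedom, Benjamini-Hochberg adjustment over all genes tested). Contrasts covered nAAC and Rev-nAAC against sham, Rev-nAAC against nAAC, sham ages and differences of effects. The steps were tested on simulated data. CPM levels carry counting error that is large for genes near 0. No column of per-sample values was left unused.

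The members and lists were chosen with earlier results of these data known. Named members were all Timp, gelatinase and membrane-type genes, up to 10 higher and 10 lower per comparison of operations by fold among those at 1 CPM or more in the higher group, up to 5 each way for ages and effects, and up to 4 genes of smallest p per list, of which some are not reported here. Members whose values are given library by library, and further genes named with values, were chosen after their values were seen.

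Alternatives were RLE scaling, no filter on low counts, the replicate number as a block, sex as a covariate, only the compared groups, DESeq2 1.42.0, and each library left out. Leaving out 5 doubted libraries and using male libraries alone were added after seeing the data. Gene positions and exon overlaps come from GENCODE M21, in which all 70 members matched, and promoters from RefSeq.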

Additional observations from a re-analysis of the deposited data

Results flagged for a closer look

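Single libraries stood apart from the other 4 of their group in 18 of 180 groups examined over 20 members. The cutoff gives about 1 in 20 by chance only for independent, normally distributed values. The members share libraries and several lie near 0 CPM, so the count cannot be set against that rate. Rev-nAAC 4-week replicate 2 was high for Mmp3 at 30.5 CPM and Mmp9 at 9.63 CPM. Replicate 1 of nAAC at 4 weeks was low for Mmp3 at 1.92 CPM and high for Adamts7 at 16.2 CPM. Rev-nAAC 6-week replicate 4 was low for Timp2 at 101 CPM and Mmp2 at 56.5 CPM. Replicate 1 of nAAC at 8 weeks was low for Mmp2 at 135 CPM and high for Mmp13 at 0.893 CPM. At 6 weeks, nAAC replicate 4 was high for Timp1 at 23.7 CPM, replicate 1 for Timp4 at 25.1 CPM and replicate 5 for Mmp9 at 0.531 CPM. Mmp9 was also high in Rev-nAAC 6-week replicate 1 at 1.77 CPM and 8-week replicate 5 at 1.53 CPM. Mmp12 was high in nAAC 4-week replicate 3 at 1.15 CPM, Rev-nAAC 4-week replicate 5 at 2.16 CPM and nAAC 8-week replicate 4 at 3.55 CPM. Adamts20 was high in Rev-nAAC 4-week replicate 3 at 5.66 CPM, and Adamtsl2 in Rev-nAAC 8-week replicate 5 at 107 CPM.

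The effect of nAAC against sham differed between 6 and 4 weeks, by the test of the difference itself in edgeR, for the following members, given as the log2 difference of the effects. It was 4.86 for Adamts4, 3.48 for Adamts12, 3.34 for Mmp13, 2.99 for Adam12 and 2.18 for Adamts17, and -0.86 for Timp3 and -0.80 for Adamtsl4. The difference of Rev-nAAC from nAAC changed between 4 and 8 weeks by -3.91 for Mmp12, -2.74 for Adam12, -2.33 for Adamts8, -2.22 for Timp1 and -1.20 for Adamts9.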

How the results depend on the processing

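Counts below are of members called. For alternative fits, here and above, the share of all genes called is not given. A shift in these counts is thus not a result about the members in particular. Without 1 library at a time, nAAC against sham called 26 to 33, 27 to 31 and 28 to 34 members at 4, 6 and 8 weeks, Rev-nAAC against nAAC 0 to 9, 19 to 22 and 20 to 28, and Rev-nAAC against sham 22 to 27, 7 to 18 and 20 to 24. Sham 6 against 4 weeks gave 16 to 18, sham 8 against 6 weeks 0 to 1, the change of the nAAC effect 16 to 18 (6 against 4 weeks) and 0 to 1 (8 against 6 weeks), and the change of the Rev-nAAC difference from 4 to 8 weeks 4 to 12. The count of 0 at 4 weeks for Rev-nAAC against nAAC came without nAAC replicate 3 and that of 9 without nAAC replicate 1. The cause of the shifts below was not tested, except that fewer libraries enter some fits.

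In a fit of only the compared groups, sham 6 against 4 weeks called 28 members and sham 8 against 6 weeks 13, the 8-against-6-week nAAC effect 1, and Rev-nAAC against nAAC at 4 weeks and the change of its difference 0 each. DESeq2 called 5 members for Rev-nAAC against nAAC at 4 weeks, 3 for sham 8 against 6 weeks and 1 for the later nAAC effect. Sex as a covariate gave 6 for Rev-nAAC against nAAC at 4 weeks. Without the 5 doubted libraries these 3 comparisons gave 13, 5 and 1, the change of the Rev-nAAC difference 3, and Rev-nAAC against sham at 6 weeks 21. Male libraries alone gave 5, 9 and 2 for Rev-nAAC against nAAC, 21 and 11 for Rev-nAAC against sham at 6 and 8 weeks, 10 for sham 8 against 6 weeks, 10 for the earlier nAAC effect and 0 for the change of the Rev-nAAC difference.

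Reversed in the male libraries alone were Adam17 (0.00503) and Adamts6 (-0.200) in Rev-nAAC against sham, and Adam17 (0.04004), Adam8 (0.0808), Adamts5 (-0.578) and Mmp11 (-0.0202) in Rev-nAAC against nAAC, all at 8 weeks and on the log2 scale.

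Same-numbered libraries deviated together, with a correlation over 0.1, in at most 2 of 5 pairs of any comparison of operations. The highest correlation was 0.257, in Rev-nAAC against nAAC at 4 weeks. The numbers were not used to pair samples, and weak correlations cannot exclude a pairing. With the replicate block, nAAC against sham called 35, 30 and 31 members, Rev-nAAC against nAAC 2, 20 and 25, Rev-nAAC against sham 28, 12 and 22, sham ages 19 and 1, the nAAC effects 18 and 0, and the change of the Rev-nAAC difference 8.

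Members near 0 CPM, such as Mmp8, Mmp9, Mmp12 and Mmp13, rest on few reads. All sham libraries are male, so in the pooled fits sex enters every comparison with sham. Sex enters Rev-nAAC against nAAC too, with 2, 2 and 4 female libraries in Rev-nAAC and 3, 4 and 2 in nAAC at 4, 6 and 8 weeks.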
